A study of Mus musculus with 35 samples.

Results

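The EGF family genes described here are the ligands Areg, Hbegf, Ereg, Egf, Btc and Tgfa and their receptor Egfr. They were chosen by name, and all 7 were present among the 23538 gene rows of every count table matched to the labels. The study sequenced mRNA of single mouse small intestinal cells with CEL-seq, in which each well of a 96-well plate receives 1 sorted cell and transcripts are counted by a random barcode. Cells came from organoids, which are crypts grown in a gel, or directly from the intestine. Of 1680 wells, 1209 held at least 1500 gene counts and were kept, and wells were summed into 12 libraries, each being 1 replicate.

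Organoid cells fell into 3 groups. Whole organoid cells were extracted at random and came from crypts of a wild-type C57BL/6 mouse (2 libraries). Reg4-positive organoid cells came from a culture of a Reg4-dsRed-knock-in mouse (2 libraries, the first of which is 1 plate although the labels name samples I to III), and Lgr5-positive organoid cells from a culture of an Lgr5-GFP-DTR mouse (1 library). All organoids were fed human EGF together with R-spondin 1 and Noggin. Each culture came from 1 mouse and its replicates are passages of that culture, so the sort cannot be told apart from the mouse or the culture. Cells taken ex vivo were Lgr5-EGFP-positive crypt cells (2 libraries) and YFP-positive cells (5 libraries). The latter are Lgr5 progeny collected 5 days after Cre, driven by Lgr5, had removed a loxP-flanked block before YFP at Rosa26. The labels do not say whether ex vivo plates came from separate animals, so p-values measure only the spread between passages or plates.

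EGF family ligands are made as transmembrane precursors that metalloproteases such as ADAM17 cut from the cell surface. Released ligand binds EGFR, which signals through RAS and ERK to growth and survival genes and is restrained by LRIG1, ERRFI1 and ERK phosphatases. In the crypt, Paneth cells are a known source of EGF and TGF-alpha, and organoid medium contains EGF because stem cells need it.

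Kept libraries held 287001 to 2860636 gene counts. The sort genes were read first. Lgr5, a Wnt receptor component of crypt stem cells, stood at 30.1 and 63.2 CPM (counts scaled to a common library total, with TMM factors for libraries and without them for single plates and clusters) in whole organoid libraries and at 252.5 in the Lgr5-positive organoid library. It stood at 147.6 and 112.5 in Lgr5-EGFP intestine. Reg4, a secretory cell gene, was at 2618 and 7548 CPM in Reg4-positive libraries and at 1495 and 107 in whole organoid libraries. All 7 pan-epithelial markers were detected in every library. Of 13 immune markers, 7 to 11 were at 0 in a library, and the rest summed to between 12.6 and 262 CPM. Of 11 stromal and endothelial markers, only 1 was at 0 in whole organoid replicate 2, where they summed to 31.5 CPM, led by Col3a1 with 19 counts. In the other libraries 6 to 10 were at 0. The highest sum was 333 CPM in Reg4-positive replicate 2, led by Vim with 350 counts.

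Areg encodes amphiregulin, a ligand of EGFR. The gene lies on the plus strand of chr5:91139599-91148432 (GRCm38), between Ereg at chr5:91074622-91093646 and Btc at chr5:91357261-91402994, so 3 of the 6 ligand genes are neighbours. Its promoter is shown because most results below turn on Areg. RefSeq's table for GRCm38.p6, which holds 250 bases before and 50 after a start site, had an entry for 5 of the 7 genes: Areg, Egf, Btc, Tgfa and Egfr. The Areg sequence below runs 5′ to 3′ on the plus strand over chr5:91139349-91139648, and capitals mark a cyclic AMP response element (TGACGTCA) and a TATA box (TATAAA).
Areg promoter: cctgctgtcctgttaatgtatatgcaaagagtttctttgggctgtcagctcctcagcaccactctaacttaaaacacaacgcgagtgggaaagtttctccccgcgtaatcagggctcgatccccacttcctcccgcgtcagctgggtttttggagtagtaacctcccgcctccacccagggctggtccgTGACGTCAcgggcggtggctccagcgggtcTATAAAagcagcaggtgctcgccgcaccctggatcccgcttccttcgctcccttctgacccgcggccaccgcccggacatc
The element TGACGTCA begins 61 bases before the start and TATAAA begins 31 bases before it. Searched on both strands, TGACGTCA was found in 588 of 32851 promoters in that table (1.79%) and TATAAA in 4473 (13.6%), and neither was found in the other 4 matched windows. The AP-1 motif TGANTCA, held by 7.81% of promoters, was in none of the 5 windows. The search for these 3 motifs describes letters in a window and was not linked to any measured value.

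Areg was high in whole organoids, intermediate in YFP progeny, and nearly undetected in both Lgr5 sorts and in Reg4-positive cells. It stood at 57.0 and 238 CPM in the whole organoid libraries (mean 148 ± 128, SD, n = 2). Reg4-positive cells had 0 CPM in replicate 1 and 2.82 in replicate 2. No Areg count was found in the Lgr5-positive organoid library, where 3 counts would give 2.98 CPM. Both whole organoid libraries lay above every other organoid library. In intestine, the 5 YFP libraries held 71.4, 29.3, 35.6, 11.2 and 23.7 CPM (mean 34.2 ± 22.6, SD, n = 5). The Lgr5-EGFP libraries held 0.87 CPM, which is 1 count, and 0 CPM. Every YFP library was above both Lgr5-EGFP libraries, whereas the whole organoid and YFP ranges overlapped.

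**Figure D1:**
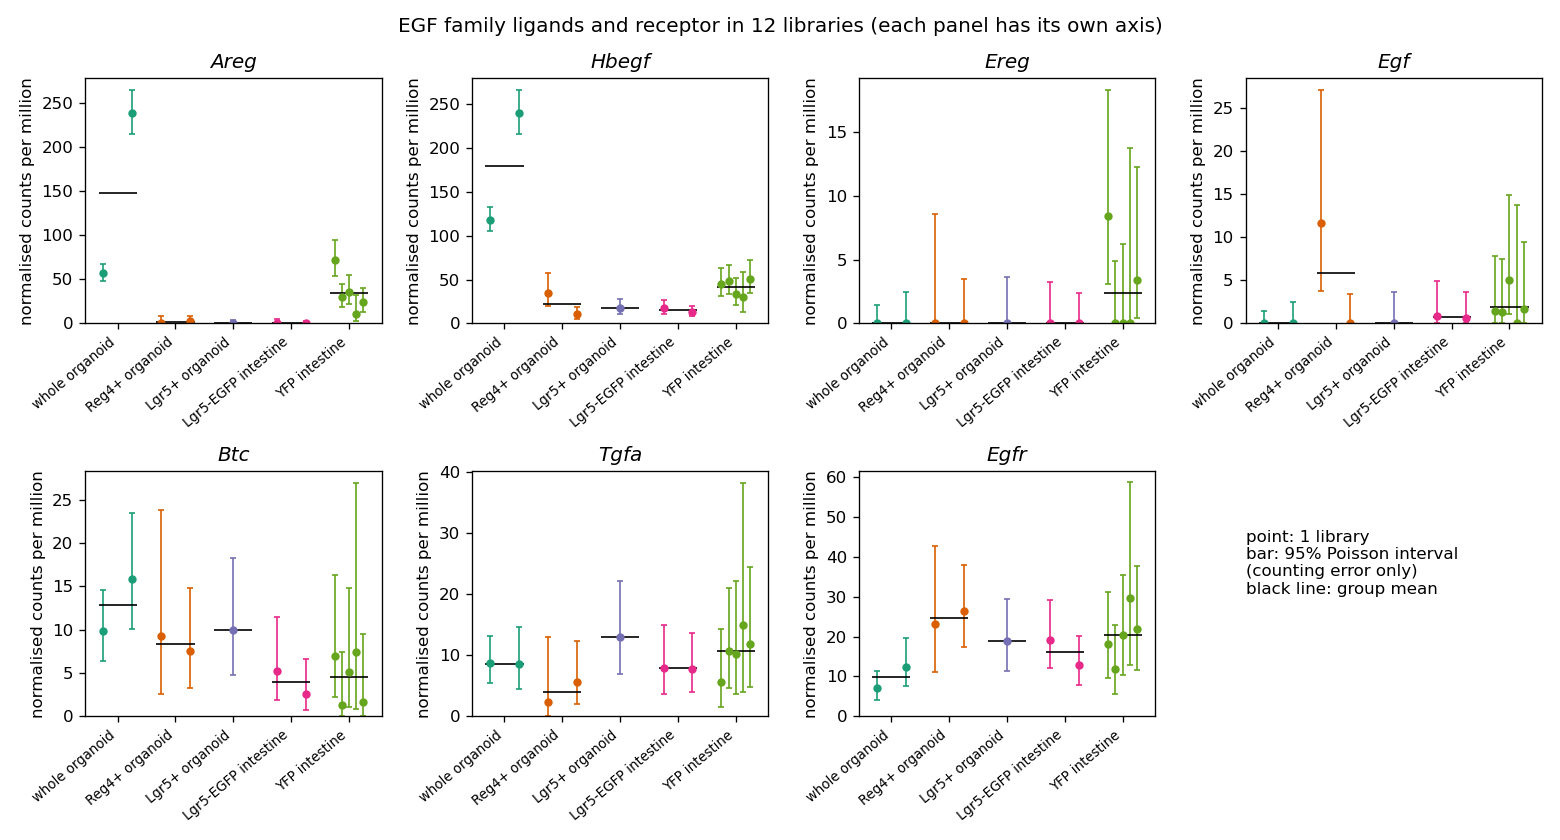
Normalised CPM (y axis, separate for each gene) of the 7 genes in the 12 libraries, grouped on the x axis by culture or intestine sort. Points are libraries, bars are 95% Poisson intervals for counting error only and black lines are group means; the group means of Areg and Hbegf are highest in whole organoids and that of Egfr is lowest there, while single libraries overlap with YFP intestine for Areg and Egfr.

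Areg and Hbegf passed the test between Reg4-positive and whole organoids, and both were lower in Reg4-positive cells. Areg had 506 counts in whole organoids and 3 in Reg4-positive cells, a 62.4-fold ratio of depth-scaled counts (95% interval 21.2 to 303, counting error only). Without whole organoid replicate 2 the ratio was 28.4, without replicate 1 it was 119, and without Reg4-positive replicate 2, which held all 3 counts, it was at least 17.98. Its edgeR log2 fold change was −6.16 (SE 1.02, adjusted p = 0.0180). The 3 Reg4-positive wells with Areg had a median of 162627 gene counts, against 5678 in the other wells of that library. Hbegf, the heparin-binding ligand, stood at 118 and 240.2 CPM in whole organoids and at 34.8 and 10.3 in Reg4-positive cells, without overlap. It fell by 3.17 on the log2 scale (SE 0.60, adjusted p = 0.0239). Across all genes 680 of 10522 (6.46%) were called in this comparison, against 2 of the 5 members tested. Without Reg4-positive replicate 1 Areg lost its call (log2 fold change −5.65, adjusted p = 0.0764 by edgeR). The Hbegf call was lost without the 3 wells above 100000 counts (edgeR adjusted p = 0.0617) and with the replicate number added to the fit (edgeR adjusted p = 0.0532).

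Areg also fell in Lgr5-positive organoid cells. With 0 counts there, whole organoids were at least 41.9-fold higher, with 3 counts as the floor for that library (edgeR adjusted p = 0.0352). This bound was 19.1-fold without whole organoid replicate 2 and 79.9-fold without replicate 1. Hbegf, at 17.9 CPM in the Lgr5-positive library, gave a log2 fold change of −3.31 (SE 0.77) and an edgeR adjusted p of 0.0584, which missed the threshold of 0.05. Of all genes, 3.63% were called, against 1 of 5 tested members. The single Lgr5-positive library is assumed to vary as the other groups do. The Areg call was lost with every well thinned to 1500 counts (adjusted p = 0.0894) and without wells above 100000 counts (adjusted p = 0.0667), while Areg stayed at 0 counts in the Lgr5-positive library. Hbegf gained a call with DESeq2, with no filter on low counts, in a fit of all 5 groups, without either whole organoid replicate and without plate III of whole organoid replicate 2.

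In the intestine, Areg and Hbegf both rose from Lgr5-EGFP cells to their YFP progeny. Areg had 111 counts in YFP libraries and 1 in Lgr5-EGFP libraries, a 102-fold ratio whose counting interval runs from 17.98 to 4074. It was 43.6 without Lgr5-EGFP replicate 2 and at least 17.6 without Lgr5-EGFP replicate 1, which held the 1 count. The edgeR log2 fold change was 6.14 (SE 0.89, adjusted p = 0.00026). Hbegf stood at 44.8, 48, 33.9, 29.8 and 50.8 CPM in YFP libraries and at 17.5 and 13 in Lgr5-EGFP libraries. Those ranges did not overlap, and the log2 fold change was 1.51 (SE 0.26, edgeR adjusted p = 0.00089). The background here was wide, with 25.7% of 9065 genes called, against 2 of 3 tested members. Egfr was the third tested member (0.28, SE 0.34, edgeR adjusted p = 0.605). The share of wells with Hbegf showed less: its means were 19.2% in YFP and 16.2% in Lgr5-EGFP libraries (exact permutation p = 0.571), and after thinning 3.26% and 4.52%. For Areg these means were 8.86% and 0.667% (exact permutation p = 0.0952). With each well thinned to 1500 counts, no member passed the filter on low counts, so none was tested.

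Enterocyte markers were summed beside Areg. The 18 markers summed to 34127 and 17801 CPM in whole organoids, 1578 to 7370 in YFP libraries, 2524 and 3265 in Reg4-positive libraries, 1220 in the Lgr5-positive organoid library and 597 and 628 in Lgr5-EGFP intestine. Of these markers, 1 was at 0 in both whole organoid libraries, 0 or 1 in YFP libraries and 5 or 6 in Lgr5-EGFP libraries. Whole organoids had the highest and Lgr5-EGFP intestine the lowest sums, but the Reg4-positive sums lay within the YFP range, where Areg was higher. Between the whole organoid replicates the order was opposite, with more markers in replicate 1 and more Areg in replicate 2. In replicate 1, Areg wells had a median of 355 marker counts per 10000 and the other wells 467. The part of these markers in the Areg differences was not tested. A library sum cannot tell more positive cells from more transcript per cell, and the share of wells gives a second view.

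At least 1 Areg count was found in 19.6% and 30.1% of whole organoid wells. The shares in YFP libraries were 10.0%, 8.97%, 12.2%, 2.86% and 10.3%, or 32 of 335 wells in all. Only 1 of 159 Lgr5-EGFP wells and 3.70% of wells of Reg4-positive replicate 2 held one, and 0 of 74 wells did in the Lgr5-positive organoid library, which allows up to 4.05% of wells with a count (3 of 74) and does not bound the cells that express it. Whole organoid shares exceeded all YFP shares, with means of 24.9% and 8.86%. A two-sided exact permutation test gave p = 0.0952, the smallest that 2 against 5 libraries allow (0.267 after adjustment over 14 such tests). With wells thinned to 1500 counts the means were 8.39% and 3.18% and p = 0.286 by the same exact test. Areg was concentrated: in each whole organoid library 7 wells held 50% of its counts, and the highest single well held 19 of 144 and 74 of 362 counts. In YFP libraries 1, 2, 3 and 5, 2 wells held 50%.

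Most Areg counts of the whole organoids lay on 1 plate. Areg stood at 39.1, 76.3 and 39.8 CPM on the 3 plates of replicate 1, and at 0, 49.6, 403 and 50.6 on plates I to IV of replicate 2. Plate III thus carried 328 of the 362 Areg counts of that library, in 45 of its 79 wells (57.0%). The other 6 plates spanned 0 to 76.3. The design text says that wells 49 to 96 of sample number 4 are unrelated and does not name the plate. The table of YFP plate IV holds 48 wells, while that of plate IV of whole organoid replicate 2 holds 96, and 33 of its 41 kept wells, with 20 of its 21 Areg counts, are among wells 49 to 96. They were kept, and without them Areg and Hbegf kept their calls in the comparisons with Reg4-positive and YFP cells. Hbegf stood at 105, 130 and 70.4 on replicate 1 plates and at 48.4, 99.2, 376 and 72.3 on replicate 2 plates, so plate III was again the highest. ERK-induced transcripts, a list of 11 genes, summed to 32.8 counts per 10000 on plate III, against 14.4 to 17.8 on the other plates of replicate 2 and 11.8 to 17.1 on those of replicate 1. The plate of Reg4-positive replicate 1 reached 27.6 per 10000, yet it held no Areg count and had Hbegf at 30.3 CPM. The part of these transcripts in the Areg and Hbegf levels of plate III was not tested.

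**Figure D2:**
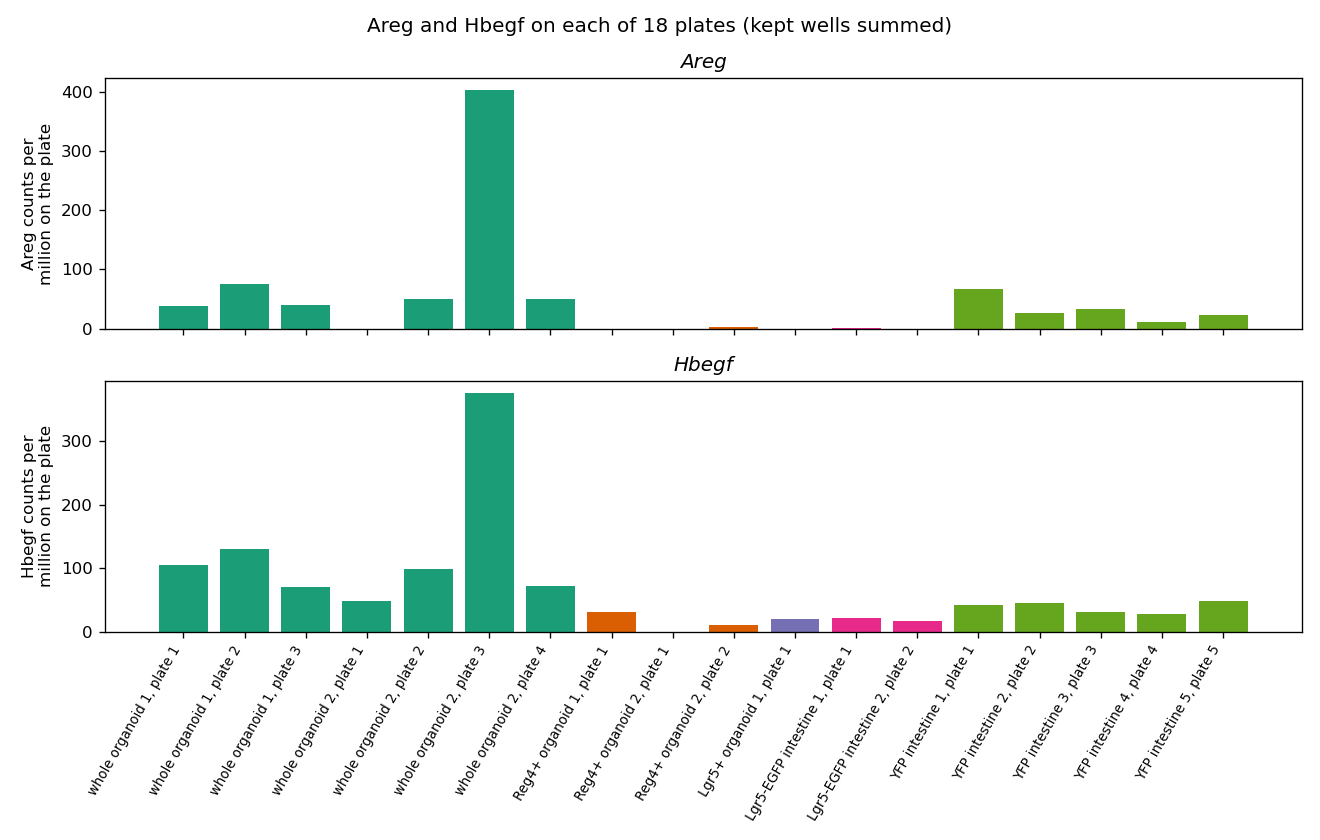
Areg (top) and Hbegf (bottom) CPM of the kept wells on each of 18 plates, coloured by group. Plate 3 (III) of whole organoid replicate 2 stands at 403 for Areg and 376 for Hbegf; the next highest plates are at 76.3 and 130.

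Whole organoids and YFP progeny, which both spread over several clusters of cells, were compared next. Areg was higher in culture, with a log2 fold change of 1.98 (SE 0.49, edgeR adjusted p = 0.0099), and so was Hbegf at 2.06 (SE 0.30, edgeR adjusted p = 0.0003). Of 10632 genes, 22.9% were called, against 2 of the 5 tested members. For Areg the call rested on 1 plate: without plate III of replicate 2 the log2 fold change was 0.55 (edgeR adjusted p = 0.384), and without replicate 2 it was 0.63 (adjusted p = 0.386). Thinning each well to 1500 counts also ended the Areg call (1.46, edgeR adjusted p = 0.131). Hbegf kept its call without plate III, without each replicate in turn and with thinned wells, with log2 fold changes from 1.28 to 2.49. Both whole organoid libraries lay above the YFP maximum of 50.8 CPM for Hbegf. Shares of wells with Hbegf were 38.8% and 43.1% in whole organoids and 14.3% to 25% in YFP libraries. The exact permutation p was 0.0952 both before and after thinning, where the mean shares were 14.5% and 3.26%.

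The cells that hold the ligands were found by clustering wells without the 7 member genes. Clusters are called X-like where markers of a type lead them, and comparisons between clusters are descriptions without a test. Among YFP wells, 39 of 335 formed an enterocyte-like cluster led by Fabp1, Apoa1, Fabp2 and Apoa4, genes of lipid absorption. It held 86 of 111 Areg counts (77.5%), in 15 wells (38.5%, exact 95% interval 23.4% to 55.4%). The other 296 wells held Areg in 17 (5.74%). Its level was 274 CPM in the enterocyte-like wells and 8.93 elsewhere. By plate the enterocyte-like level was 521, 128, 203, 0 and 366, from 14, 9, 9, 2 and 5 wells. Hbegf was spread more widely. The same wells held 49 of its 126 counts (38.9%), at 156 CPM against 27.5 in the rest. Egfr ran the other way, in 2 of 39 enterocyte-like wells (5.13%, 0.627% to 17.3%) and 48 of 296 others (16.2%, 12.2% to 20.9%).

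Whole organoid wells with Areg were of several kinds. An unnamed cluster of 18 wells led by Klf6, Zfp36, Cyp3a11, S100g, Fos and Jun, with 6 enterocyte markers raised, held 109 Areg counts in 15 wells and 126 Hbegf counts in all 18, at 566 and 654 CPM. Of those wells, 14 were on plate III; the 4 elsewhere held Areg at 288. A goblet-like cluster of 10 wells, which has Paneth markers among its leaders too, held 99 Areg counts in 4 wells (1128 CPM), of which 74 sat in 1 well and 97 on plate III. Of the enterocyte-like clusters, the Reg1- and Apoa4-led one (97 wells) held Areg at 92.0 and Hbegf at 89.9 CPM. The Aldh1a1- and Fabp1-led one (54 wells) held 14 Areg and 60 Hbegf counts. A cluster of 41 wells led by Dmbt1, Sprr1a, Reg3g and Ccl20, antimicrobial and epithelial stress genes, held 90 Areg counts in 16 wells and 144 Hbegf counts in 28. It also held 17 Btc counts in 10 wells, 31.4 CPM. Clusters called enterocyte-like held 102 of the 506 Areg counts. Enterocyte markers were also raised in unnamed clusters: the Klf6-led one, a 2310014L17Rik-led one (4 markers, 39 Areg counts in 59 wells) and an Rn45s-led one (4 markers, 8 Areg counts in 47 wells). No enterocyte marker was raised in the goblet-like cluster, the Sprr1a cluster or a Dmbt1- and Nlrp1a-led one, which held 54 Areg counts in 27 of 92 wells.

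**Figure D3:**
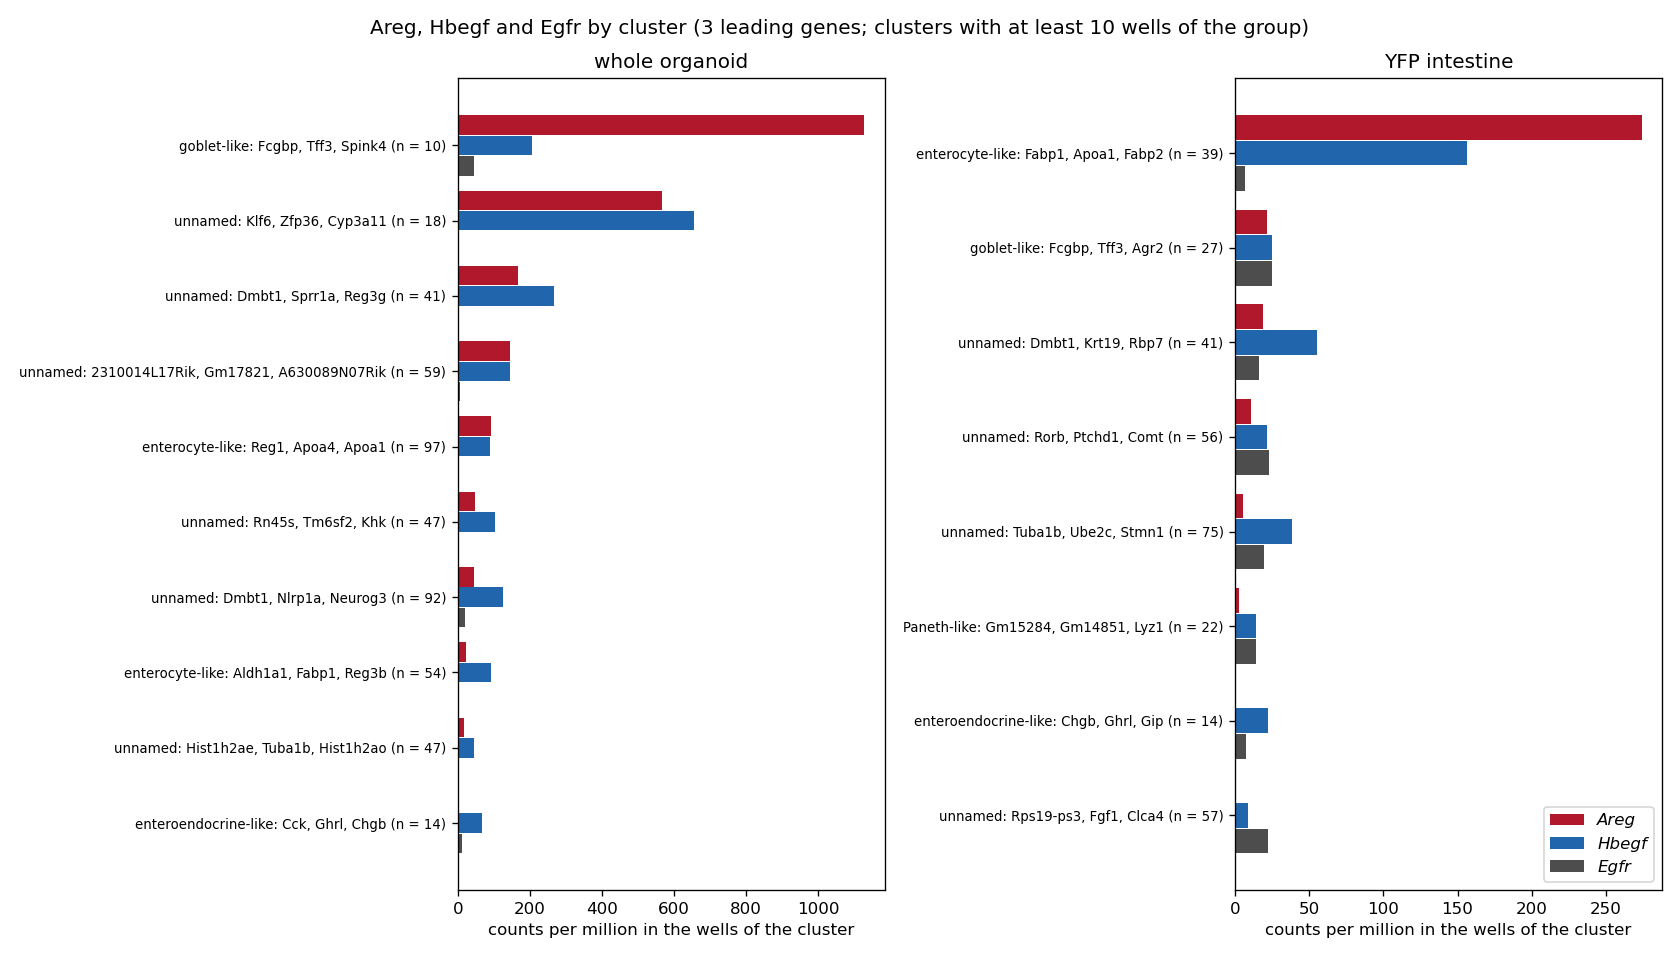
Areg, Hbegf and Egfr CPM (x axis) in clusters with at least 10 wells (y axis, 3 leading genes), for whole organoids (left) and YFP intestine (right). The Klf6-led organoid cluster stands at 566 for Areg and 654 for Hbegf, the goblet-like Areg bar at 1128 rests mostly on 1 well with 74 counts, and among YFP clusters Areg is highest in the enterocyte-like one.

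Wells with Areg often held Hbegf too. Of wells with Areg, 63.0% in whole organoid replicate 1 and 73.0% in replicate 2 held Hbegf, against 32.9% and 30.1% of wells without Areg. In YFP libraries 1 to 5 the shares were 75.0%, 42.9%, 33.3%, 100% (1 well) and 71.4%, against 9.72%, 22.5%, 13.8%, 11.8% and 19.7%. These 7 libraries showed the same order. Wells with Areg were deeper, at a median of 12679 against 7270 counts in whole organoid replicate 1 and 11502 against 3515.5 in replicate 2. With wells thinned to 1500 counts the organoid shares were 25% against 10.6% and 34.6% against 15.3%. Thinned YFP wells were too few to read, with 1 of 12 Areg wells holding Hbegf. ERK-induced transcripts summed to a median of 14.3 per 10000 in Areg wells of replicate 1, against 6.02 in the others, and to 25.1 against 14.4 in replicate 2. In replicate 2, 45 of the 63 wells with Areg were on plate III. There 73.4% of all wells held Hbegf, against 7.69%, 25.4% and 34.1% on plates I, II and IV. ERK-induced transcripts were also highest on plate III, so both replicate 2 contrasts cannot be told apart from the plate. All values of wells with and without Areg are descriptions, since the wells share their plates.

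Hbegf encodes the heparin-binding EGF-like ligand; its gene is on the minus strand of chr18:36504927-36515805. Reg4-positive libraries spanned 10.3 to 34.8 CPM, which covered the Lgr5-positive organoid library at 17.9 and Lgr5-EGFP intestine at 17.5 and 13. Whole organoids were the only group above all others. Within Reg4-positive organoids none of 34 Paneth-like wells held a count of Hbegf, which does not bound the cells that express it. The 47 goblet-like wells held 12 of the 26 counts and 9 stem-like wells held 11, in 4 wells. The goblet-like cluster had 12 Paneth and 10 goblet markers raised, so these counts do not tell goblet from Paneth cells. In the stem-like cluster of the Lgr5-positive organoid library, 12 of 68 wells held it, at 20.2 CPM.

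Ereg, encoding epiregulin, and Egf itself were scarcely detected. Ereg had 6 counts in YFP library 1 and 2 in YFP library 5 and none in the other 10 libraries, where 3 counts would correspond to between 1.19 and 11.2 CPM. YFP cells had 8 counts against 0 in Lgr5-EGFP cells, a 2.11-fold ratio with 3 counts over the Lgr5-EGFP group as the floor. This ratio leaves out counting error in the 8 counts, of which 4 lay in 1 well of YFP library 1. Between these groups the share of wells with Ereg gave an exact permutation p of 0.952, so no difference was shown. Of the 8 Ereg counts, 5 lay in enterocyte-like wells. Egf (minus strand, chr3:129677565-129755316), the precursor of epidermal growth factor, totalled 13 counts: 5 in Reg4-positive replicate 1, 1 in each Lgr5-EGFP library and 1, 1, 3, 0 and 1 in the YFP libraries. It had none in either whole organoid library, where 3 counts give 1.19 and 1.97 CPM. Of the 13 counts, 8 were in Paneth-like wells. Neither gene passed the filter for an edgeR test in any comparison.

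Btc encodes betacellulin, a ligand of EGFR and ERBB4, and lies on the minus strand. It was found in every library, at 9.90 and 15.8 CPM in whole organoids, 9.28 and 7.51 in Reg4-positive cells and 9.94 in Lgr5-positive organoid cells. In intestine it stood at 5.24 and 2.60 in Lgr5-EGFP libraries and at 7, 1.33, 5.08, 7.45 and 1.69 in YFP libraries. All 5 organoid libraries lay above all 7 intestine libraries, but only by 7.51 against 7.45 CPM. The 7.51 was 8 counts in Reg4-positive replicate 2, with a Poisson interval for counting error of 3.24 to 14.8. The 7.45 was 2 counts in YFP library 4, with an interval of 0.90 to 26.9. The gap thus lay within counting error and does not separate culture from intestine. No share of all genes with such an order is given. Counts were 25 or fewer in a library. Against YFP cells, whole organoids gave a log2 fold change of 1.57 (SE 0.56, edgeR adjusted p = 0.0555). The mean of the 3 culture groups exceeded the mean of the 2 intestine groups by 1.32 (SE 0.45, edgeR adjusted p = 0.0786), which missed the threshold. With no filter on low counts, with wells of at least 3000 counts, or without YFP replicate 1, the difference from YFP cells was called.

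Tgfa (plus strand, chr6:86195223-86275719), encoding TGF-alpha, ranged from 2.32 to 14.9 CPM over the libraries. It stood at 8.71 and 8.56 CPM in whole organoids, 2.32 and 5.64 in Reg4-positive cells and 12.9 in Lgr5-positive organoid cells. The Lgr5-EGFP libraries stood at 7.86 and 7.80 and the YFP libraries at 5.60 to 14.9, with a median of 10.7. No comparison called it, and its largest log2 difference was −0.93 (SE 0.75, edgeR adjusted p = 0.522) between Reg4-positive and whole organoids. Of YFP counts, 2 of 29 were in enterocyte-like wells.

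Egfr (plus strand, chr11:16752203-16918158) encodes the receptor, whose group mean was lowest in whole organoids, where those of Areg and Hbegf were highest. It stood there at 7.13 and 12.5 CPM, and at 23.2 and 26.3 in Reg4-positive cells and 18.9 in Lgr5-positive organoid cells. In intestine it stood at 19.2 and 13 in Lgr5-EGFP cells and at 18.2, 12, 20.3, 29.8 and 22.0 in YFP cells. Only the YFP library at 12 lay within the whole organoid range. The edgeR log2 fold change from YFP cells to whole organoids was −1.02 (SE 0.37, adjusted p = 0.0590), missing the threshold, and it was called without plate III (−1.51, adjusted p = 0.0137), without whole organoid replicate 2 (−1.42) and without YFP replicate 2 (−1.18). Against whole organoids, Reg4-positive cells gave 1.38 (SE 0.48, edgeR adjusted p = 0.136), called only in the fit over all 5 groups (adjusted p = 0.0327). Egfr was found in 6.16% and 7.18% of whole organoid wells and 11.5% to 17.1% of YFP wells (exact permutation p = 0.0952, the smallest allowed).

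Egfr wells were few in the organoid enterocyte-like clusters, with 3 of 97 in the Reg1-led one and 0 of 54 in the Aldh1a1-led one. A cluster of 92 whole organoid wells led by Dmbt1, Nlrp1a, Neurog3 and Clca4 held 24 of the 37 Egfr counts (64.9%), in 22 wells. The same cluster held 153 of the 664 Hbegf counts (23.0%), the largest share of any cluster, in 48 wells. It also held 54 of the 506 Areg counts, in 27 wells. In Reg4-positive organoids, 8 of 14 wells of an enteroendocrine-like cluster led by Afp, Reg4 and Alb held Egfr, at 114 CPM, against 7 of 42 wells and 42.4 in the other enteroendocrine-like cluster. Among stem-like wells of the Lgr5-positive organoid library, 18 of 68 held it, at 22.6 CPM.

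Culture and intestine were also compared at the level of all groups and of the matched Lgr5 sort. No tested member was called between Lgr5-positive organoid and Lgr5-EGFP intestine cells by edgeR, 0 of 5 against 1.44% of all genes; none had an unadjusted p under 0.05, and DESeq2 also called none. Egfr differed by 0.25 on the log2 scale (SE 0.50) and Hbegf by 0.25 (SE 0.63). Areg had 0 counts in the organoid library and 1 in the intestine libraries, so no fold is given. Between the means of the culture and intestine groups, 0 of 5 members were called by edgeR against 10.8% of genes; 1 (Btc) had an unadjusted p under 0.05, and DESeq2 called none. The culture mean includes the Lgr5-positive library, and without it Hbegf was called (1.19, edgeR adjusted p = 0.0171).

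**Figure D4:**
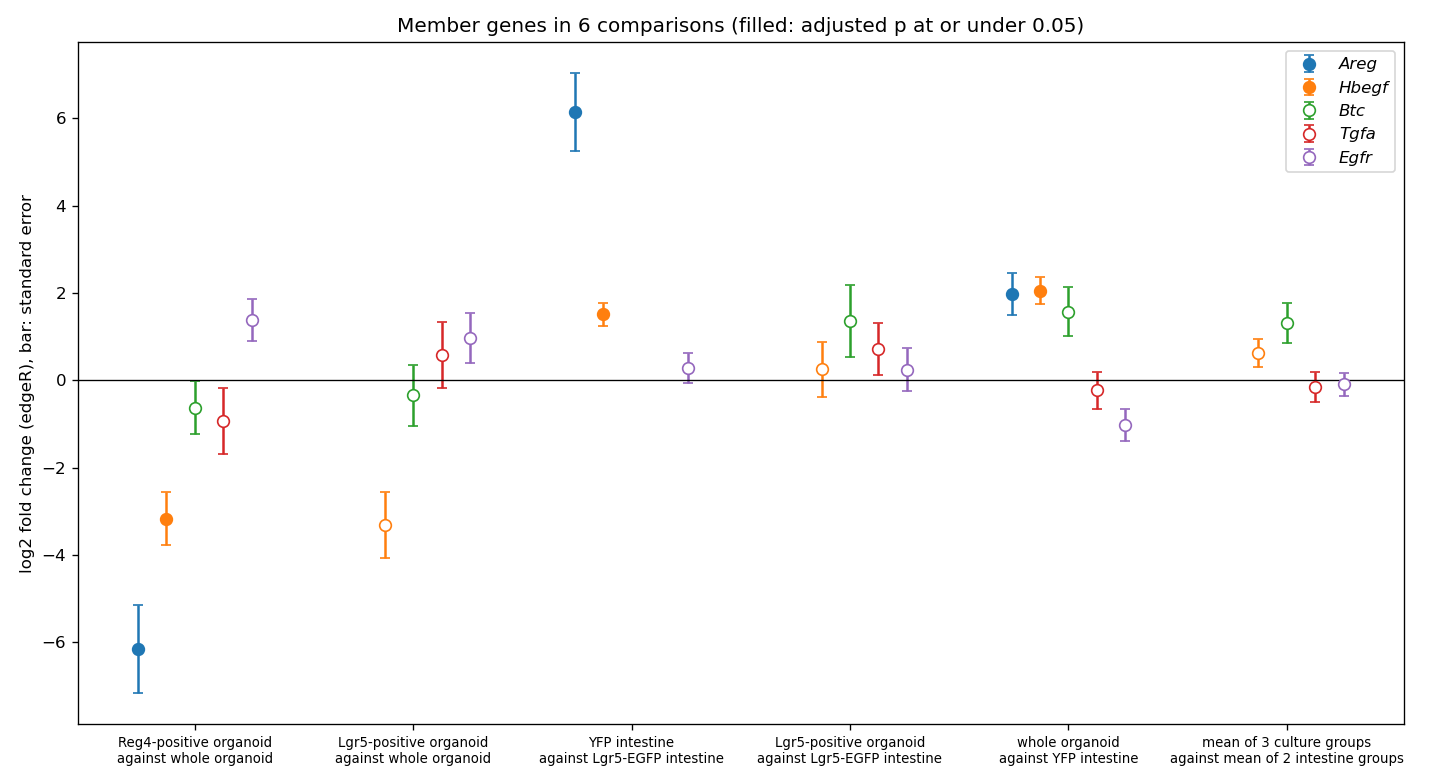
Fitted log2 fold changes (y axis, bars are standard errors) of 5 members in the 6 comparisons (x axis), filled where the edgeR adjusted p is at or under 0.05. Areg is left out where a group had no count, and Hbegf is filled in 3 comparisons.

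Other genes of the pathway were counted from a list of 54, of which 53 were in the files: other ligands, ERBB receptors, sheddases, inhibitors, adaptors, the RAS to ERK chain, ERK feedback genes and ERK-induced transcripts. Whole organoids against YFP cells gave the most calls, 12 higher and 2 lower of 40 tested (35.0%, against 22.9% of all genes; DESeq2 called 9), with a median log2 fold change of 0.32 against 0.04 over all genes. Dusp6, an ERK phosphatase, stood at 27.3 and 63.2 CPM in whole organoids and between 3.7 and 12 in YFP libraries (log2 fold change 2.42, SE 0.42, edgeR adjusted p = 0.0010). Errfi1, a receptor inhibitor, rose by 1.80, Map2k1, the ERK kinase gene, by 1.61 and Nrg4, an ERBB4 ligand, by 1.56. Of 10 tested ERK-induced transcripts, 6 rose and Myc and Ccnd1 fell by 0.95 and 0.65. Plate III of whole organoid replicate 2 held these transcripts at 32.8 per 10000, against 11.8 to 17.8 on the other whole organoid plates. Pathway calls were not counted without that plate. The culture mean against the intestine mean gave 5 higher and 1 lower of 40 (15.0%, against 10.8% of all genes; DESeq2 called 6): Etv4 (2.28), Dusp6 (1.81), Phlda1 (1.46), Map2k1 (1.09) and Errfi1 rose, and Ccnd1 fell by 0.52.

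Within culture, none of 42 pathway genes was called between Reg4-positive and whole organoids by edgeR; 9 had an unadjusted p under 0.05, and DESeq2 called 2. Between Lgr5-positive and whole organoids, 3 of 42 fell (7.14%, against 3.63% of all genes called; DESeq2 called 6), all of them ERK-induced transcripts of the list. Fos stood at 18.9 CPM in the Lgr5-positive library and at 564 and 1010 in whole organoids (−5.37, SE 1.09, edgeR adjusted p = 0.0393), Junb fell by 3.91 and Ier3 by 2.48. Against Lgr5-EGFP intestine, the same library had 2 of 40 higher and none lower (5.0%, against 1.44% of all genes; DESeq2 called 4): Etv4, an ERK-induced transcription factor, at 54.7 against 7.0 and 4.6 CPM (3.25, SE 0.59, edgeR adjusted p = 0.0131), and Phlda1 (1.70).

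In the intestine, 4 of 37 pathway genes rose and 4 fell from Lgr5-EGFP to YFP cells. That is 21.6%, below the 25.7% of all genes called, and DESeq2 called 6. Ier3 (1.43), Egr1 (0.99), Fos (0.58) and Junb (0.58) rose. Rhbdf1, which helps ADAM17 mature, fell by 0.98, Phlda1 by 0.69, Ccnd1 by 0.61 and Lrig1, an EGFR inhibitor of crypt stem cells, by 0.59. The median over the list was 0.03, against −0.00 over all genes tested.

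Genes whose CPM followed the members most closely over the 12 libraries were named by Spearman correlation, among about 7130 genes. For Areg they were H2-Q1 (0.97), Chchd2 (0.96) and Dstn (0.96), and for Hbegf Nadkd1 (0.94), Ppara (0.93) and Sdhd (0.92). For Tgfa they were Gm12504 (0.90), Churc1 (0.85) and Eif4e2 (0.85), and for Egfr Slc37a3 (0.86), Prosc (0.85) and Cst3 (0.84). Between members, Areg and Hbegf correlated at 0.73, Hbegf and Egfr at −0.49 and Areg and Egfr at −0.42. The libraries share groups and plates, so these are descriptions.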

How the data were processed

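The authors deposited estimated counts of transcripts per gene and well, from 4-base random barcodes (256 possible) per the labels. The values fit whole barcode numbers under the usual collision correction, so they need not be whole, and they were rounded here. Reads were aligned with BWA 0.6.2-r126, and GRCm38 (mm10) is named, per the submitters' processing notes. No gene annotation or counting rule is given in the sources used here. The 92 spike-in rows and the dsRed row were left out. Of the tables, 7 were matched to labels, 1 of them (Lgr5-positive organoid) by name alone; 2 of 96 wells each could not be matched and were not used.

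Wells with at least 1500 gene counts were kept and summed per replicate (18 plates, 12 libraries). Totals of all wells ran from 293702 to 2870987, so 1 count is worth more CPM in shallower libraries. Tests used edgeR 4.0.16 in R 4.3.3 (TMM, filterByExpr, quasi-likelihood, Benjamini-Hochberg over all tested genes at 0.05). A standard error is the fold change divided by the square root of F. Organoid comparisons shared 1 fit of 3 groups, intestine comparisons 1 fit of 2 groups, and comparisons of culture with intestine 1 fit of all 5. DESeq2 1.42.0, no filter, other well filters, thinned wells, other fits and left-out replicates were alternatives. The edgeR step was tested on simulated data. Clusters used scanpy 1.11.5 (Leiden resolution 1, 20 components). The genes and lists were chosen with earlier results of these data known. Named genes were all members, the 3 genes closest to each member with at least 100 counts, and at most 4 called pathway genes in each direction.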

Additional observations from a re-analysis of the deposited data

Results flagged for a closer look

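On the 7 whole organoid plates, Areg stood at 402.6 CPM on plate III of replicate 2, and the next highest plate was at 76.3. Hbegf stood at 375.6 on the same plate, and the next highest was at 130.2. Both were picked out because the highest plate lay far from all the others for a group of this size. In all, 21 groups of values were checked, and chance alone picks out about 1 in 20 such groups. Both genes were read from the same wells, so the 2 values are not independent.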

How the results depend on the processing

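Small counts limit all members but Areg and Hbegf: 25 or fewer Btc counts and 28 or fewer Egfr counts stood behind a library. Of the member log2 fold changes, 333 kept direction and call under an alternative, 15 gained a call, 9 lost one and 12 changed sign. Differences in shares of wells were counted apart, and 3 of them changed sign. All numbers of genes below are edgeR calls unless DESeq2 is named, and the cause of each change was not tested.

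Reg4-positive against whole organoids went from 680 genes to 1716 with no filter on low counts and 1910 in the fit over all 5 groups. Left-out replicates gave 209 to 933 genes, and 1 to 2 members; 1 member was called without wells above 100000 counts. Lgr5-positive against whole organoids went from 382 to 1372 with no filter, 174 with thinned wells, 143 without wells above 100000 counts and 1738 in the fit over all 5 groups. Left-out replicates gave 561 to 837 genes and 2 to 2 members. Members called were 2 with DESeq2, no filter, the fit over all 5 groups or without plate III (chosen after the data were seen), and 0 with thinned wells or without wells above 100000 counts. YFP against Lgr5-EGFP intestine went from 2330 to 574 with thinned wells, where 0 members were called, and to 1104 to 2446 with a replicate left out. Lgr5-positive organoid against Lgr5-EGFP intestine went from 153 to 472 with no filter, 19 with thinned wells, 615 with only the groups compared and 41 to 56 with a replicate left out. Whole organoid against YFP went from 2435 to 710 with thinned wells, where 1 member was called, and to 1187 to 2199 with a replicate left out. Culture against intestine went from 1144 to 228 with thinned wells and 625 to 2320 with a replicate left out; 1 member was called with no filter, and left-out replicates gave 0 to 1.

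The replicate numbers do not pair the samples by design, and deviations of same-numbered libraries correlated between −0.11 and 0.21. With the replicate block, calls were 418 (Reg4-positive against whole organoid, 1 member), 76 (Lgr5-positive organoid against Lgr5-EGFP intestine), 918 (whole organoid against YFP, 1 member) and 591 (culture against intestine). With the crossed replicate block, Reg4-positive against whole organoid gave 1427 genes. The block reversed Egfr in YFP against Lgr5-EGFP cells (−0.10), Tgfa in whole organoid against YFP (0.12), and Tgfa (0.049) and Egfr (0.091) in culture against intestine.

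Other reversed values were near 0 or rested on few counts. Btc in Lgr5-positive against whole organoids ran from −0.66 to 0.029 with a replicate left out (0.029 without whole organoid replicate 2), and Hbegf in Lgr5-positive organoid against Lgr5-EGFP cells was −0.49 with thinned wells. In culture against intestine, Areg was 0.031 with DESeq2, 2.03 without the Lgr5-positive organoid library and 0.63 without Lgr5-EGFP replicate 1; with a replicate left out Areg ran from −1.73 to 2.03 and Egfr from −0.23 to 0.052. Egfr was 0.043 without wells above 100000 counts, 0.052 without whole organoid replicate 1 and 0.042 without Lgr5-EGFP replicate 1. Shares of wells with a count, YFP minus Lgr5-EGFP, were −1.27 percentage points for Hbegf, 0.78 for Btc and 2.39 for Tgfa after thinning. With DESeq2, 124 of 196 calls were higher in Lgr5-positive organoid than in Lgr5-EGFP cells, against 81 of 153 with edgeR.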
